A study of Mus musculus with 10 samples.

Results

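The genes of the cytosolic ribosome were examined in liver RNA-seq of fasted and refed mice with and without hepatocyte NAMPT. Members were the genes of the count files whose protein-coding symbol has the Rpl or Rps form of a ribosomal protein of the cytosol, together with the stalk proteins Rplp0, Rplp1 and Rplp2 and the small-subunit protein Rpsa. The ribosomal S6 kinases and symbols of processed pseudogenes were left out. The rule gave 83 of the 41388 genes in the files, 32 of the small subunit and 51 of the large subunit. Another 5 symbols of the same form (Rps4l, Rps12l1, Rpl6l, Rps3a2 and Rps3a3) are annotated as pseudogenes and were not members. After the filter on low values (over 1 CPM, the count scaled to the library's total, in 1 library or more), 80 of the 83 members were among the 13444 genes tested, and Rpl3l, Rpl10l and Rpl39l were not.

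Livers came from littermate C57B/6J mice at 12 wk of age, with 1 library per mouse. All of the mice carried Nampt alleles flanked by LoxP sites. WT mice had no cre, and NAMPT LKO mice carried Albumin-cre, which acts in hepatocytes and leaves the other cells of the liver with Nampt. The labels give 3 WT Fast and 5 NAMPT LKO Fast mice, all fasted for 24 h, and 2 WT Fast-refeed mice, fasted for 22 h and then refed for 2 h. The study describes these last controls as random-fed and its fast as shorter, so the length of the fast and the state of the controls differ between the sources. There was no refed NAMPT LKO group.

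The cytosolic ribosome is built from a small subunit, which reads the mRNA, and a large subunit, which forms the peptide bond and passes the new chain out through a tunnel. Most ribosomal proteins are needed in equal numbers. Many ribosomal protein mRNAs start with an unbroken run of pyrimidines, the terminal oligopyrimidine (TOP) tract. In nutrient shortage, when mTORC1 is low, TOP mRNAs are held out of polysomes and their translation falls, while the mRNAs themselves can be kept. An mRNA count of the kind analysed here measures the amount of mRNA and not its translation.

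RefSeq start sites of build GRCm38.p6 were found for 63 of the 83 members, and for 15 of the 19 members named in the comparisons. Start sites of 8 of these are shown, picked to span the run lengths, because a TOP tract lies in the first bases of an mRNA. Each line gives 10 bases before and 20 bases from the first listed start of the gene, 5′ to 3′ on the gene's own strand, and capitals mark the longest unbroken run of C and T in those 30 bases.
Rpl35, chr2:39005112-39005141, minus strand: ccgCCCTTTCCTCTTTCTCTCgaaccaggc
Rpl38, chr11:114668570-114668599, plus strand: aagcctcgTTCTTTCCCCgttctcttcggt
Rplp2, chr7:141447641-141447670, plus strand: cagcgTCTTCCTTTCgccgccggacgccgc
Rps9, chr7:3704031-3704060, plus strand: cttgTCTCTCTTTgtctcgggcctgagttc
Rpl12, chr2:32961702-32961731, plus strand: agcaggatccgTCTTTTCggctttcggctc
Rpl34, chr3:130730379-130730408, minus strand: tccctgacgtaCTTCCTgtccggcgccgtc
Rps28, chr17:33824543-33824572, minus strand: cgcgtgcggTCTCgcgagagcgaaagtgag
Rpl7l1, chr17:46782637-46782666, minus strand: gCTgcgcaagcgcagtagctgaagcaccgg
Of the 15 named members with a listed start, 5 held a run of at least 8 bases, and those not shown had runs of 2 to 5 bases apart from Rpl22l1 with 10 bases, so that long runs are over-represented among the lines shown. The run was 18 bases in Rpl35, 10 bases in Rpl38 and Rplp2, 9 bases in Rps9, 7 bases in Rpl12, 6 bases in Rpl34, 4 bases in Rps28 and 2 bases in Rpl7l1. A run of at least 8 bases was held by 21 of the 63 members (33.3%) and by 3021 of the 27016 genes with a listed start (11.2%). In the whole 300-base promoter entries, CCGGAAG on either strand, the core of ETS-family sites, was held by 25 of the 63 members (39.7%) and by 9.12% of all genes. AAGATGG on either strand was held by 9 members (14.3%) and by 6.47% of all genes, and TATAAA on either strand by 6 members (9.52%) and by 14.2% of all genes. These are matches of letters in one listed start per gene, and other starts in use in liver were not examined.

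Nampt, the targeted gene, was lower in every NAMPT LKO Fast library, at 11.6 to 15.1 CPM normalized by edgeR's TMM method (median 12.4, n = 5), than in the WT Fast libraries, at 62.1, 72.3 and 139 CPM. Total counts ranged from 30603080 to 43434139 per library. In NAMPT LKO Fast replicate 5, 21.1% of counts lay on the mitochondrial genome, against 7.42% to 12.9% in the other 9 libraries. This library is named below in many places but not in every range. Among others, it gives the upper end of the NAMPT LKO Fast ranges of Rpl5, Rpl35, Rpl22l1, Rps27l, Eif4b and Ddit4. Summed hepatocyte markers took 68223 to 98919 CPM of the NAMPT LKO Fast libraries, 79728 to 100814 CPM of the WT Fast libraries, and 81404 and 84085 CPM of the WT Fast-refeed libraries, and none of these 6 markers was under 1 CPM. The 5 pancreas markers were under 1 CPM in every library. Of the marker lists of other liver cells, cholangiocyte markers (4 genes) stood apart by genotype, with summed levels of 24.1 to 41.3 CPM in NAMPT LKO Fast livers, 9.92 to 12.7 CPM in WT Fast livers, and 11.6 and 14.5 CPM in WT Fast-refeed livers. Of these 4 genes, 2 were under 1 CPM throughout the WT Fast libraries, 1 in the WT Fast-refeed libraries and 0 in the NAMPT LKO Fast libraries. Their part in the results on ribosomal protein genes was not tested.

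Ribosomal protein mRNAs were abundant and took a similar share of the library in the 3 groups. Members held 1.53% and 1.55% of all counts in the WT Fast-refeed libraries, and 1.59%, 1.42% and 1.46% in the WT Fast libraries. The shares in NAMPT LKO Fast replicates 1 to 5 were 1.61%, 1.5%, 1.45%, 1.44% and 1.16%. The WT Fast libraries lay on both sides of the refed ones, and the NAMPT LKO Fast libraries overlapped both groups except for replicate 5, which was the lowest of the 10. Of the counts outside the mitochondrial genome, the members took 1.47% in that library and 1.57% to 1.79% in the others. The mean share of all counts was 1.54% ± 0.0135 (SD, n = 2) in WT Fast-refeed, 1.49% ± 0.0891 (SD, n = 3) in WT Fast and 1.43% ± 0.165 (SD, n = 5) in NAMPT LKO Fast livers, or 1.5% ± 0.0745 (SD, n = 4) without replicate 5. Bulk RNA cannot tell fewer cells of a type from less RNA per cell.

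**Figure D1:**
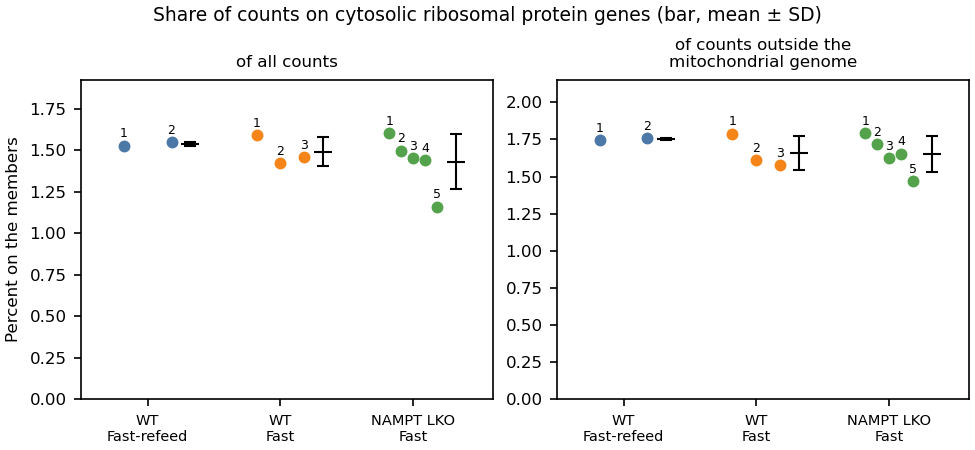
Percent of each library's counts on the 83 cytosolic ribosomal protein genes, over all counts (left) and over counts outside the mitochondrial genome (right). Points are libraries, numbered by replicate, and bars are the group mean ± SD. NAMPT LKO Fast replicate 5 is lowest in both panels, at 1.16% and 1.47%, and the groups overlap otherwise.

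Levels between members were compared per exonic length, as the deposited RPKM averaged over the 10 libraries. The 80 tested members ranged from 0.470 to 582 RPKM with a median of 114 RPKM, against a median of 3.51 RPKM over all tested genes, and 79 of the 80 were above 10 RPKM. The most abundant were Rplp1, an acidic protein of the stalk that recruits elongation factors, at 582 RPKM, Rps26, which contacts the mRNA at the exit site, at 509 RPKM, and Rps27, a zinc-finger protein of the small subunit, at 456 RPKM. The files give short exonic lengths for these genes, 495, 447 and 255 bases. The least abundant were Rpl24, a large-subunit protein that bridges to the small subunit, at 0.470 RPKM, Rps15a at 11.0 RPKM and Rpl22l1 at 11.5 RPKM. Rps15a has an exonic length of 6262 bases in the files, and its count level was 68.3 CPM.

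Several of these levels rest on how reads of near-identical copies were counted. The deposited counts hold uniquely aligned 50-base reads, and of the members' transcript stretches of that length a median of 44.3% also occur in another gene. The share was above 50% in 33 of the 80 members and reached 98.6% in Rps27. For Rpl24, 81.7% of stretches are shared and 47.0% of exon bases overlap Gm28037, which had no count in any library. Across the 80 members, the share of such stretches and the RPKM had a Spearman correlation of 0.052, a description over genes of the same libraries. Exons of 27 members overlap another gene, by over 25% of exon bases in 7 of them, among them Rpl35 (66.2%, Wdr38) and Rpl5 (26.7%, Fam69a and Snord21), and the sources used here do not state whether counting used strand.

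To ask how the feeding state bears on these genes, WT Fast livers were compared with WT Fast-refeed livers. Rpl7l1 and Rpl3 were lower in WT Fast livers, and these were the only members of 80 that passed the test (edgeR's quasi-likelihood test over 13444 genes, Benjamini-Hochberg adjusted p at or under 0.05). That is 2.5% of the members, against 7.04% of all genes called in this comparison, and 4.36% of all genes were called lower. Of the 80 members, 71 had a log2 fold change between -0.25 and 0.25. The refed values rest on 2 mice.

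Rpl7l1 (ENSMUSG00000063888, chromosome 17 of GRCm38, 46773907 to 46782656, minus strand) is a paralogue of Rpl7 known from nucleolar precursors of the large subunit. It measured 79.7 and 80.8 CPM in WT Fast-refeed livers and 50.7, 52.6 and 55.2 CPM in WT Fast livers. In NAMPT LKO Fast replicates 1 to 5 it measured 50.7, 49.5, 49.3, 51.5 and 50.4 CPM. All 8 fasted livers lay below both refed livers, and the fasted genotypes overlapped. The log2 fold change of WT Fast vs. WT Fast-refeed was -0.60 (standard error 0.0954, 95% interval -0.81 to -0.39, adjusted p = 0.00487, edgeR). The mean fell from 80.3 ± 0.818 CPM (SD, n = 2) to 52.8 ± 2.26 CPM (SD, n = 3). Of its transcript stretches, 9.03% also occur elsewhere.

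Rpl7, its parent gene and a constituent of the mature large subunit, measured 232 and 227 CPM in refed livers, 247, 232 and 218 CPM in WT Fast livers and 228 to 270 CPM (median 248, n = 5) in NAMPT LKO Fast livers. These groups overlapped. Its log2 fold change of WT Fast vs. WT Fast-refeed was 0.02 (95% interval -0.24 to 0.28), and the intervals of Rpl7 and Rpl7l1 did not overlap, although the difference between the 2 genes was not itself tested.

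Rpl3 (ENSMUSG00000060036, chromosome 15 of GRCm38, 80077794 to 80091868, minus strand) lies close to the peptidyl transferase centre of the large subunit. Rpl3 measured 198 and 200 CPM in WT Fast-refeed livers and 129, 135 and 146 CPM in WT Fast livers. The values of NAMPT LKO Fast replicates 1 to 5 were 154, 144, 136, 133 and 118 CPM. Again all 8 fasted livers lay below both refed livers and the fasted genotypes overlapped. Its log2 fold change of WT Fast vs. WT Fast-refeed was -0.54 (standard error 0.126, 95% interval -0.82 to -0.26, adjusted p = 0.0272, edgeR). Of its transcript stretches, 85.6% also occur in another gene, so its level is that of its unique stretches. The call did not hold with 1 library left out in 4 cases: the adjusted p was 0.156 and 0.204 without WT Fast-refeed replicate 1 or 2, and 0.0915 and 0.0873 without WT Fast replicate 1 or 2 (edgeR). For Rpl7l1 it was 0.0527 and 0.0693 without either refed library.

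**Figure D2:**
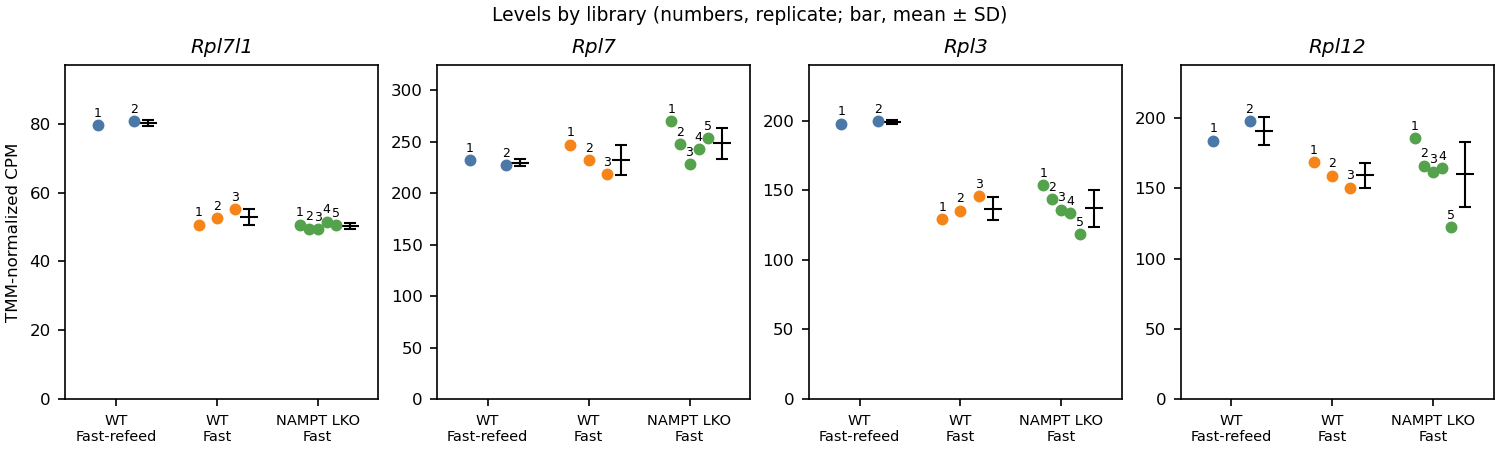
TMM-normalized CPM of Rpl7l1, its parent Rpl7, Rpl3 and Rpl12 by library, with replicate numbers, and bars of mean ± SD. The 8 fasted livers lie at 49.3 to 55.2 CPM for Rpl7l1 against 79.7 and 80.8 CPM in refed livers, and at 118 to 154 CPM for Rpl3 against 198 and 200 CPM, while Rpl7 overlaps between groups.

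Among the members with positive fold changes in this comparison, the lowest p-values belonged to Rpl34, Rps28, Rps9 and Rpl38, and none passed. Rps9, which lies near the decoding site of the small subunit, measured 203 and 198 CPM in refed livers and 261, 251 and 274 CPM in WT Fast livers, without overlap. Its log2 fold change was 0.39 (standard error 0.192, adjusted p = 0.264, edgeR). Without NAMPT LKO Fast replicate 5, which measured 148 CPM and shares in the estimate of the spread, the adjusted p was 0.0205 and Rps9 was called. With only the libraries of the compared groups in the fit, Rps9 was also called (adjusted p = 0.0343, edgeR). Rps28, a protein of the head of the small subunit, measured 96.4 and 101 CPM in refed livers and 122, 116 and 126 CPM in WT Fast livers, also without overlap, with a log2 fold change of 0.30 and an adjusted p of 0.187. Rpl38, which has been tied to the translation of particular developmental mRNAs, had a log2 fold change of 0.20 and an adjusted p of 0.366, and its fasted value nearest to the refed ones, 91.8 CPM, lay just above 91.4 CPM.

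With negative fold changes, Rpl12 and Rps7 followed Rpl7l1 and Rpl3 and did not pass. Rpl12, at the base of the stalk, measured 184 and 198 CPM in refed livers and 169, 159 and 151 CPM in WT Fast livers (log2 fold change -0.26, adjusted p = 0.362, edgeR). Rps7, a small-subunit protein, measured 133 and 140 CPM and then 129, 125 and 112 CPM (log2 fold change -0.16, adjusted p = 0.409, edgeR). In both, the groups did not overlap, yet the values lay near each other.

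Over all 80 tested members the log2 fold changes of WT Fast vs. WT Fast-refeed had a median of 0.032, beside 0.037 over all tested genes. They were above 0 in 50 members and below 0 in 30. The median was -0.0084 without WT Fast replicate 1 and 0.065 without WT Fast replicate 3. The median absolute log2 fold change was 0.080, beside 0.272 over all genes tested and 0.227 over the 9130 genes of at least 5 CPM. By subunit, the median was 0.039 in the 32 small-subunit members, 0.019 in 45 large-subunit members and 0.081 in the 3 stalk proteins, and both called members were large-subunit genes. The WT Fast and WT Fast-refeed libraries did not overlap for 32 of the 80 members (40%), beside 49.7% of all genes. Of those 32, 24 were higher and 8 lower in WT Fast livers. The 95% interval lay within -0.5 and 0.5 for 51 members and within -1 and 1 for 76.

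**Figure D3:**
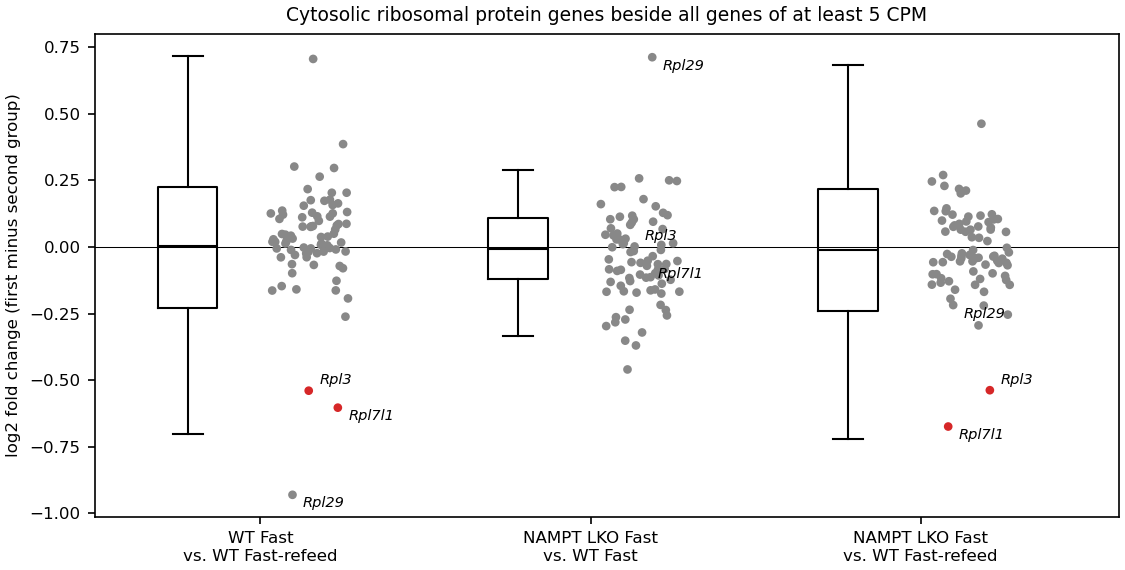
The log2 fold changes of the 79 ribosomal protein genes of at least 5 CPM (points, red where adjusted p was at or under 0.05) in the 3 comparisons. Boxes show the median and quartiles of the 9130 genes of at least 5 CPM, with whiskers at the 5th and 95th percentiles. Rpl3 and Rpl7l1 are the red points in both comparisons with refed livers, and no point is red between the fasted genotypes.

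To ask how hepatocyte NAMPT bears on these genes in the fasted state, NAMPT LKO Fast livers were compared with WT Fast livers. No member of 80 passed the test, beside 1 gene of 13444 (0.00744%), which was Nampt. At an unadjusted p under 0.05, 2 members of 80 were found with edgeR's quasi-likelihood test, beside 811 of the 13444 genes. They were Rps29 and Rplp2, both with lower means in NAMPT LKO Fast livers. DESeq2, edgeR's exact test and limma's voomWithQualityWeights also called 0 members, with 3, 1 and 7 at an unadjusted p under 0.05. The numbers over all genes are not given for these 3 tests. The groups did not overlap for 4 members (5.0%), Rpl35, Rpl37a, Rplp2 and Rps13, beside 3.99% of all genes. Rps13 is named here after its values were seen.

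Rps29, a zinc-binding protein of the small-subunit head, measured 82.1, 77.0 and 81.0 CPM in WT Fast livers, and 78, 62.6, 59.5, 65.7 and 54.5 CPM in NAMPT LKO Fast replicates 1 to 5. Replicate 1 lay among the WT Fast values and the other 4 lay below them. The log2 fold change was -0.32 (standard error 0.116, 95% interval -0.58 to -0.07, adjusted p = 0.798, edgeR). The refed livers, at 73.5 and 65.4 CPM, lay within the range of the NAMPT LKO Fast livers.

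Rplp2, the partner of Rplp1 in the stalk, measured 171, 172 and 180 CPM in WT Fast livers and 165, 147, 147, 135 and 146 CPM in NAMPT LKO Fast replicates 1 to 5. All NAMPT LKO Fast values lay below all WT Fast values. The log2 fold change was -0.24 (standard error 0.0903, 95% interval -0.43 to -0.04, adjusted p = 0.824, edgeR). The refed livers, at 151 and 158 CPM, lay within the range of the NAMPT LKO Fast livers. The stalk proteins Rplp0, Rplp1 and Rplp2 all had negative log2 fold changes (-0.37 to -0.12), and none passed. NAMPT LKO Fast replicate 5 was the lowest of its group for Rplp0 (280 CPM against 343 to 388 CPM) and Rplp1 (157 CPM against 255 to 292 CPM).

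Rpl37a, a zinc-binding large-subunit protein, measured 106, 100 and 103 CPM in WT Fast livers and 58.6 to 98.9 CPM (median 87.1, n = 5) in NAMPT LKO Fast livers, where the lowest was replicate 5 (log2 fold change -0.30, adjusted p = 0.837, edgeR). Of the members with positive fold changes, Rps3a1, Rpl35, Rpl30 and Rpl21 had the lowest p-values, with log2 fold changes of 0.25, 0.18, 0.25 and 0.22, each at an adjusted p of 0.837. Rpl35, at the mouth of the exit tunnel, measured 63.0, 62.3 and 51.7 CPM in WT Fast and 63.4 to 70.0 CPM (median 66.7, n = 5) in NAMPT LKO Fast livers, which did not overlap by a margin of less than 1 CPM. In Rps3a1, Rpl30 and Rpl21 the highest value of all 10 libraries was that of NAMPT LKO Fast replicate 5 and the lowest that of WT Fast replicate 3, and the groups overlapped.

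Across the 80 members the median log2 fold change of NAMPT LKO Fast vs. WT Fast was -0.055, beside 0.0002 over all genes, with 32 members above 0 and 48 below. With 1 library left out that median ranged from -0.11, without NAMPT LKO Fast replicate 1, to 0.0041, without WT Fast replicate 1, and was -0.0051 without NAMPT LKO Fast replicate 5. The median absolute log2 fold change was 0.113, beside 0.115 over the 9130 genes of at least 5 CPM. The half-width of the 95% interval had a median of 0.255 over the members. For 56 members the interval lay within -0.5 and 0.5, and for 78 within -1 and 1.

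NAMPT LKO Fast livers were also compared with WT Fast-refeed livers, a comparison that differs in both genotype and feeding and shares its libraries with the other comparisons. Rpl7l1 and Rpl3 were again the members called, 2 of 80 (2.5%), beside 11.2% of all genes, 6.58% of them lower. The log2 fold changes were -0.67 for Rpl7l1 (standard error 0.0858, adjusted p = 0.00112, edgeR) and -0.54 for Rpl3 (standard error 0.114, adjusted p = 0.0135, edgeR). Without WT Fast-refeed replicate 1 or 2, Rpl3 was not called (adjusted p = 0.117 and 0.152, edgeR) and Rpl7l1 remained called. Between the fasted genotypes the log2 fold change was -0.07 for Rpl7l1 (95% interval -0.24 to 0.10) and 0.0018 for Rpl3 (95% interval -0.22 to 0.23).

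In the same comparison, Rpl12 and Rpl27 followed among negative fold changes, and Rpl5, Rps3a1, Rpl22l1 and Rps3 had the lowest p-values among positive ones, and none passed. Rpl5, which carries the smallest ribosomal RNA into the large subunit and binds Mdm2, measured 210 and 214 CPM in refed livers and 217 to 284 CPM (median 239, n = 5) in NAMPT LKO Fast livers (log2 fold change 0.21, adjusted p = 0.328, edgeR). Rps3, at the mRNA entry site, measured 267 and 283 CPM and then 291 to 310 CPM (median 306, n = 5), without overlap (log2 fold change 0.14, adjusted p = 0.423, edgeR). Rpl12 had a log2 fold change of -0.25 (adjusted p = 0.298) and Rpl27 of -0.14 (adjusted p = 0.434). Over the 80 members the median log2 fold change was -0.029, beside 0.032 over all genes, and ranged from -0.057 without NAMPT LKO Fast replicate 1 to 0.021 without NAMPT LKO Fast replicate 5. The groups did not overlap for 10 members (12.5%), beside 33.5% of all genes.

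Members that have a numbered paralogue were described in pairs. Rpl10l, the retrogene of Rpl10 active in testis, had a count of 0 in all 10 libraries, and Rpl39l, the paralogue of Rpl39, had 8 counts in all. Rpl3l, the muscle form of Rpl3, had 30 counts over the 10 libraries, with at most 6 in a library. Rpl10 and Rpl39 themselves were at 268 and 46.7 CPM on average and were not called in any comparison. Rps27l, a p53-responsive paralogue of Rps27, measured 95.6 and 99.9 CPM in refed livers, 103, 105 and 87.2 CPM in WT Fast livers and 82.6 to 120 CPM (median 99.8, n = 5) in NAMPT LKO Fast livers, and these overlapped. Rpl22l1, the paralogue of the RNA-binding protein Rpl22, was low, at 4.33 and 4.73 CPM in refed livers, 5.08, 6.97 and 4.74 CPM in WT Fast livers and 3.25 to 8.98 CPM (median 6.01, n = 5) in NAMPT LKO Fast livers. Rpl22 itself measured 123 and 129 CPM, then 147, 138 and 127 CPM, and 131 to 197 CPM (median 134, n = 5), with replicate 5 the highest.

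A few members varied widely between libraries of 1 group. Within groups, the SD of log2 CPM had a median of 0.147 over the 79 members of at least 5 CPM, beside 0.197 over the 9130 genes of that level, and 0.0977 beside 0.140 without NAMPT LKO Fast replicate 5. The widest member by this measure was Rpl29 (ENSMUSG00000048758, chromosome 9 of GRCm38, 106429454 to 106431568, plus strand), a basic large-subunit protein that is not essential in mice. Rpl29 measured 150 and 151 CPM in refed livers, 151, 18.4 and 68.0 CPM in WT Fast livers and 149, 147, 150, 165 and 37.2 CPM in NAMPT LKO Fast replicates 1 to 5. Of the 10 libraries, 7 lay between 147 and 165 CPM, and WT Fast replicates 2 and 3 and NAMPT LKO Fast replicate 5 lay far below them. The log2 fold change of WT Fast vs. WT Fast-refeed was -0.93 with a 95% interval of -2.46 to 0.60 (adjusted p = 0.469, edgeR).

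Rpl34 (ENSMUSG00000062006, chromosome 3 of GRCm38, 130726831 to 130730398, minus strand) is a large-subunit protein whose levels were also split within groups. Rpl34 measured 58.4 and 59.8 CPM in refed livers, 62.9, 122 and 105 CPM in WT Fast livers and 99.2, 59.6, 54.9, 60.8 and 76.3 CPM in NAMPT LKO Fast replicates 1 to 5. The high libraries were WT Fast replicates 2 and 3 and NAMPT LKO Fast replicate 1, and the others lay between 54.9 and 76.3 CPM. Its log2 fold change was 0.71 for WT Fast vs. WT Fast-refeed (adjusted p = 0.182) and -0.46 for NAMPT LKO Fast vs. WT Fast (adjusted p = 0.837, edgeR). The first of these was 0.50 without WT Fast replicate 2, and the second was -0.26.

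The processed pseudogene Rpl34-ps1 on chromosome 6 is counted separately, and 37.9% of the stretches of Rpl34 occur in another gene. In deposited CPM, Rpl34-ps1 was at 18.6 and 18.7 in refed livers, at 22.8, 4.15 and 4.83 in WT Fast livers and at 12.8, 19.5, 18.9, 21.7 and 2.21 in NAMPT LKO Fast replicates 1 to 5. It was thus lowest in NAMPT LKO Fast replicate 5 and in the WT Fast libraries with the highest Rpl34. The same libraries were those that lay far below the others for Rpl29, a gene on chromosome 9. Why these libraries coincide was not tested. Rpl34 and Rpl34-ps1 together were at 79.8 and 81.1 CPM in refed livers. Their sum was 86.8, 121 and 113 CPM in WT Fast livers and 67.1 to 114 CPM in NAMPT LKO Fast livers. Whether reads of Rpl34 were counted on its copy in some libraries was not tested.

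**Figure D4:**
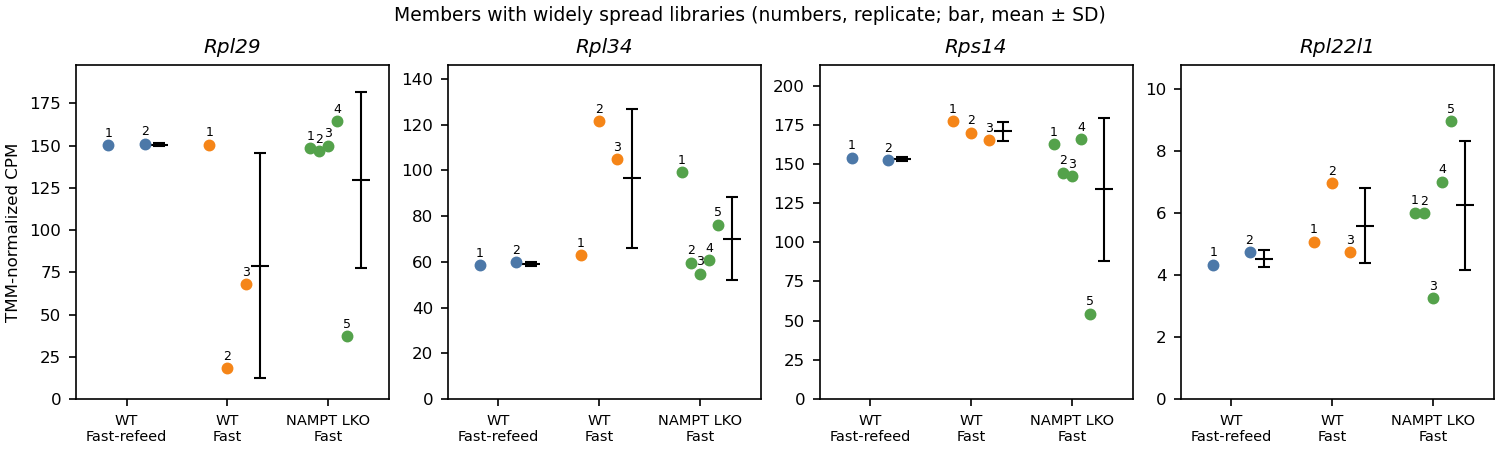
TMM-normalized CPM of Rpl29, Rpl34, Rps14 and Rpl22l1 by library, with replicate numbers, and bars of mean ± SD. Rpl29 is low in WT Fast replicates 2 and 3 and in NAMPT LKO Fast replicate 5 (18.4, 68.0 and 37.2 CPM against 147 to 165 CPM), and Rps14 is low in NAMPT LKO Fast replicate 5 alone (54.6 CPM).

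NAMPT LKO Fast replicate 5 stood apart from the other libraries over many members. Of the 79 members of at least 5 CPM, 17 lay more than 1.5-fold from their mean over the 10 libraries in replicate 5, against 0 to 2 in each other library. The interquartile range of the members' deviations was 0.568 on the log2 scale in this library and 0.0864 to 0.246 in the others. Over all genes of at least 5 CPM it was 0.632 in this library and 0.209 to 0.382 in the others. Rps14, a small-subunit protein on the platform, was among the 3 widest members in this group, with 163, 144, 142 and 166 CPM in replicates 1 to 4 and 54.6 CPM in replicate 5. The refed livers were at 154 and 153 CPM and the WT Fast livers at 178, 170 and 165 CPM. Among the most abundant members per length, Rplp1 was at 157 CPM in replicate 5 against 255 to 292 CPM in replicates 1 to 4, and Rps27 at 59.4 CPM against 116 to 133 CPM. Rps26, at 232 CPM, lay within the 221 to 239 CPM of the other 4.

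The deviations were set beside base composition. In replicate 5, the 40 members with a GC content at or under 50.94% deviated by a median of 0.0052 on the log2 scale, with 21 of them above 0. The 39 members of higher GC content deviated by a median of -0.18, with 10 above 0. Across the 79 members the deviation and GC content had a Spearman correlation of -0.265 in this library, beside -0.153 to 0.310 in the other 9, a description over genes that share the library. Over all tested genes with a GC value the correlation was -0.567 in this library and -0.032 to 0.267 in the other 9. After a correction for the GC trend of every library, the median log2 fold change of NAMPT LKO Fast vs. WT Fast was -0.017 and no member was called. The part of base composition in the deviations of replicate 5 was not tested further.

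**Figure D5:**
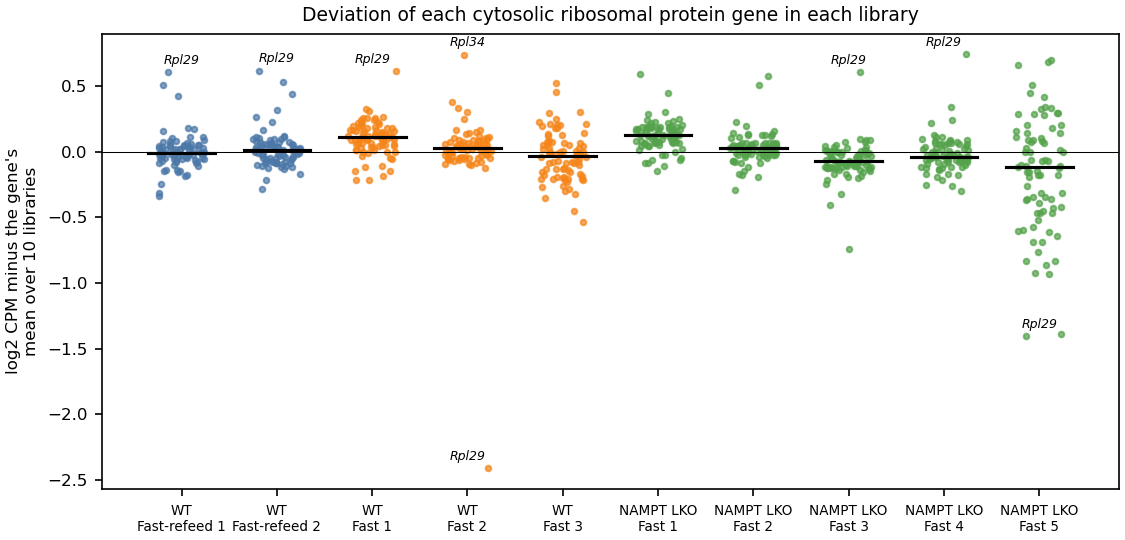
Deviation of each of the 79 ribosomal protein genes of at least 5 CPM from its mean over the 10 libraries, as log2 CPM (pseudocount 0.1), by library. Points are genes and lines are medians. In NAMPT LKO Fast replicate 5 the points spread widely (17 genes beyond 1.5-fold), while in each other library 0 to 2 genes lie beyond 1.5-fold, which are Rpl29, Rpl34 and Rpl22l1.

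Other genes of the pathway were taken from lists of the translation machinery. In WT Fast vs. WT Fast-refeed livers 12 of their 87 tested genes were called (13.8%, beside 7.04% of all genes), against 22 with DESeq2 and 35 with voomWithQualityWeights. The numbers for NAMPT LKO Fast vs. WT Fast-refeed livers were 15 (17.2%, beside 11.2% of all genes), 24 and 43. The shares of all genes are those of edgeR's quasi-likelihood test. None is given for DESeq2 or voomWithQualityWeights, so their numbers cannot be read as an excess over all genes. Of the 87 genes, 0 were called between NAMPT LKO Fast and WT Fast livers with edgeR's quasi-likelihood test, and 0 with DESeq2, edgeR's exact test or voomWithQualityWeights. With the quasi-likelihood test 6 of the 87 had an unadjusted p under 0.05, beside 811 of the 13444 genes. Fau, Rpl36al, Rps27rt and Rack1, ribosomal proteins outside the naming rule, were not called in any comparison by any of these tests, and 0 of these 4 had an unadjusted p under 0.05 with edgeR's quasi-likelihood test. Of 14 elongation factors and other mRNAs with a TOP start, 1 was called, Eif4b, a cofactor of the initiation helicase. It was called in both comparisons with refed livers, where 7.04% and 11.2% of all genes were called. Eif4b measured 231 and 207 CPM in refed livers, 332, 304 and 338 CPM in WT Fast livers and 305 to 400 CPM in NAMPT LKO Fast livers, and all fasted livers lay above the refed ones. Its log2 fold change was 0.57 for WT Fast vs. WT Fast-refeed (adjusted p = 0.0328) and 0.66 for NAMPT LKO Fast vs. WT Fast-refeed (adjusted p = 0.00941, edgeR).

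Of 31 initiation factors, 3 were called in WT Fast vs. WT Fast-refeed livers, beside 7.04% of all genes. In NAMPT LKO Fast vs. WT Fast-refeed livers 6 were called, beside 11.2% of all genes. All were lower in the fasted livers. In WT Fast livers these were Eif2b4 and Eif2b3, subunits of the exchange factor of eIF2, and Eif2s1, the alpha subunit of eIF2. Eif2b4 measured 51.1 and 55.1 CPM in refed livers and 29.0, 30.7 and 33.7 CPM in WT Fast livers, with no overlap (log2 fold change -0.77, adjusted p = 0.00402, edgeR). The log2 fold changes of Eif2b3 and Eif2s1 were -0.71 and -0.65. Those 4 of NAMPT LKO Fast livers with the lowest p were Eif2b4 (-0.99), Eif2b3 (-0.71), Eif3d (-0.58) and Eif2s1 (-0.54).

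Of 22 genes of the mTOR pathway, 2 were called higher and 1 lower in WT Fast than in WT Fast-refeed livers, beside 7.04% of all genes called. Ddit4, an inhibitor of mTORC1, measured 4.44 and 2.95 CPM in refed livers and 22.9, 23.1 and 18.4 CPM in WT Fast livers (log2 fold change 2.54, adjusted p = 0.00674, edgeR). It measured 5.91 to 11.2 CPM in NAMPT LKO Fast replicates 1 to 4 and 17.4 CPM in replicate 5. All 5 values lay above both refed livers and below all WT Fast livers. Ddit4 was not called against WT Fast livers (log2 fold change -1.1, adjusted p = 0.761, edgeR). Sesn2, a leucine-binding inhibitor of the same pathway, had a log2 fold change of 1.77, and Eef2k, the kinase of elongation factor eEF2, of -0.95. Of the same genes, 3 were called higher and 2 lower in NAMPT LKO Fast than in refed livers, beside 11.2% of all genes called. Those with the lowest p were Mlst8 (-1.43), Eef2k (-1.06), Sesn2 (1.59) and Tsc1 (0.45). Mlst8 was low in all groups, at 4.55 and 5.82 CPM in refed livers and 3.00, 3.55 and 3.02 CPM in WT Fast livers. In NAMPT LKO Fast livers it measured 1.61 to 2.27 CPM. Between the fasted genotypes Mlst8 was not called (log2 fold change -0.73, adjusted p = 0.761, edgeR).

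Of 6 tested chaperones of ribosomal proteins, 3 were called lower in WT Fast than in WT Fast-refeed livers, beside 4.36% of all genes. They were Grwd1, which binds newly made Rpl3, Ltv1, a factor of small-subunit assembly, and Heatr3, which accompanies Rpl5. Grwd1 measured 14.8 and 13.7 CPM in refed livers, 7.89, 8.19 and 6.72 CPM in WT Fast livers and 4.31 to 7.74 CPM in NAMPT LKO Fast livers, so that all 8 fasted livers lay below the refed ones, as for Rpl3. Its log2 fold change was -0.91 (adjusted p = 0.0335) and -1.13 (adjusted p = 0.00529, edgeR) in WT Fast and NAMPT LKO Fast vs. WT Fast-refeed livers. Heatr3 was also lower in both (-0.47 and -0.48), and Ltv1 in WT Fast livers (-0.69). Of 9 genes of ribosome quality control, Pelo and Abce1, which split stalled ribosomes, were called lower in WT Fast livers (-0.62 and -0.63), beside 4.36% of all genes. Pelo was also called lower in NAMPT LKO Fast livers (-0.95), beside 6.58% of all genes, each vs. WT Fast-refeed.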

How the data were processed

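Liver RNA-seq libraries of 10 mice were grouped by the labels. The authors isolated total RNA, selected polyadenylated RNA with oligo-dT beads and sequenced single 50-base reads, which the submitters' processing notes align with STAR 2.5.1a and count with featureCounts 1.4.6-p5 on GRCm38. The deposited counts are uniquely aligned reads per Ensembl gene. The deposited CPM values divide them by the library total, and the deposited RPKM values further by exonic length. Both were recomputed from the counts as a check. Strand use in counting is not given in the sources used here. Symbols came from GENCODE M21.

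The later steps were done for this report. After rRNA genes and genes that stayed at or under 1 CPM throughout were dropped, 13444 remained. The study states that it left ribosomal genes out of its own tests. This was read here as rRNA genes, and ribosomal protein genes were kept. Whether the study tested the members is thus not known. TMM factors and the quasi-likelihood test came from edgeR 4.0.16 (R 4.3.3), with a mean for every group, a fit of the 10 libraries together and Benjamini-Hochberg adjustment over the 13444 genes. The step was also run on simulated counts, and the outcome is not given here. Those counts held no library like NAMPT LKO Fast replicate 5 and no GC trend, so the run does not bear on either. Pooling the groups gives them one shared spread per gene. Total counts were 30603080 or more per library, and counting error was not estimated apart from the spread between mice. Alternatives were DESeq2 1.42.0, edgeR's exact test, voomWithQualityWeights of limma 3.58.1, other scalings and filters, a GC correction, leaving out 1 library at a time and a replicate block. Named members were, per comparison, the 4 lowest p in each direction among members of at least 5 CPM, the 3 highest and lowest RPKM, numbered paralogues with their parents, and the 3 widest in NAMPT LKO Fast. The members, lists and rules were chosen with earlier results of these data known.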

Additional observations from a re-analysis of the deposited data

Results flagged for a closer look

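In 7 of the 35 NAMPT LKO Fast measures compared with Dixon's limit of 0.71 for 5 samples, replicate 5 lay farther from the other 4 than that limit. Chance would flag about 1.75 of 35 measures. Rpl29 and Rps14 were named for their wide spread over these same 5 libraries, so their flags cannot be set against that number. The distance to the nearest other library, divided by the distance between the highest and the lowest (the gap), was 0.901 for Rpl22, where replicate 5 was highest (197 CPM against 131 to 137 CPM). Replicate 5 was lowest for Rpl29 (gap 0.86), Rps14 (gap 0.789), Rps27 (gap 0.765), Rplp1 (gap 0.728) and Rpl10 (gap 0.716; 164 CPM against 260 to 298 CPM). The interquartile range of the members' deviations was highest in replicate 5 (gap 0.909; 0.568 against 0.0864 to 0.130 on the log2 scale). These 7 flags come from the same library and are not independent of each other.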

How the results depend on the processing

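The 24 named member and comparison pairs kept the sign of their log2 fold change under all alternatives run. In WT Fast vs. WT Fast-refeed livers, the 2 called members became 6 with voomWithQualityWeights (Rpl7l1, Rpl3 and Rpl29 lower, Rps9, Rps28 and Rpl34 higher), 1 (Rpl7l1) with library size alone and 3 (with Rps9) with only the compared groups fitted. The shares of all genes called under these alternatives are not given. With each library left out in turn the number of called members was 0 to 3. In NAMPT LKO Fast vs. WT Fast-refeed livers it was 1 to 2 with a library left out, and the median log2 fold change of the members was -0.11 with library size alone, where that of all genes was -0.059. The cause was not tested. Members called in NAMPT LKO Fast vs. WT Fast livers stayed at 0 under every alternative. The mean share of counts on members became 1.75%, 1.66% and 1.65% in WT Fast-refeed, WT Fast and NAMPT LKO Fast livers over counts outside the mitochondrial genome, a smaller total by construction.

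Same-numbered WT Fast and NAMPT LKO Fast mice are different animals, so the numbers were not read as pairs. The deviations of same-numbered mice correlated at 0.0988, 0.0867 and 0.0931. Between unlike numbers of replicates 1 to 3 the correlations were lower, at -0.165 to 0.0362. Those of NAMPT LKO Fast replicates 4 and 5 with the WT Fast mice were -0.158 to 0.128. Whether same-numbered libraries share a source of variation was not tested. With a replicate block over libraries 1 to 3, 0 members were called and their median log2 fold change was 0.0068, against 0 members and 0.0026 without the block. Refed values rest on 2 mice. The spread behind each p-value of the main test was estimated from the 10 libraries together and is not that of the 2 refed mice alone.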

Other observations

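Fau, a small-subunit protein made as a fusion with a ubiquitin-like protein, had a log2 fold change of -0.15 in NAMPT LKO Fast vs. WT Fast livers, and Rack1, a scaffold on the small subunit, of -0.11, and neither passed (adjusted p = 0.844 and 0.86, edgeR's quasi-likelihood test).

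Eef2, the translocase of elongation and an mRNA with a TOP start, had a log2 fold change of 0.68 in WT Fast vs. WT Fast-refeed livers (adjusted p = 0.0523, edgeR's quasi-likelihood test), just outside the threshold, and Eef1a1 one of 0.39 (adjusted p = 0.0783). Both were chosen after their values were seen.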
